A study of Mus musculus with 7 samples.

Results

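The mitochondrial ribosomal protein genes were followed in cells washed from mouse lungs by bronchoalveolar lavage. Members were the protein-coding rows of the expression table whose symbol began with Mrpl or Mrps followed by a digit and whose mean normalized count over the 7 libraries was at least 10. All 77 such symbols, of 16476 genes in the table, reached that mean, and no symbol of this kind lay below it. The lowest member was Mrps34, with a mean of 26.9 normalized counts, and the highest was Mrpl24, with 502. A normalized count is the number of reads assigned to a gene, divided by a size factor that sets the libraries on a common scale.

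The Ntn1 KO group held 3 libraries with the genotype Netrin1loxp/loxp LysM Cre, in which Cre recombinase acts on floxed Ntn1 (Ntn1 encodes netrin-1, a secreted guidance cue). The LysM Cre group held 4 libraries with Cre alone. Cre is driven by the lysozyme M gene (Lyz2), which is active mainly in macrophages, monocytes and neutrophils and also in some alveolar type II epithelial and dendritic cells, so not every cell type of the lavage is targeted. All mice were of the C57BL/6 strain, their age is not given in the labels, and all had received lipopolysaccharide, a component of bacterial outer membranes, into the trachea 3 days earlier. Neutrophils had been depleted from the lavage with antibodies. The comparison asks which transcripts of these airspace cells differ between mice with floxed Ntn1 and Cre and mice with Cre alone. Nothing in the labels ties a library to a mouse of its own, so the p-values rest on a spread among libraries that may be technical in part.

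Mitochondria carry their own ribosome, which translates the few proteins encoded by mitochondrial DNA, all of them membrane subunits of the respiratory chain and of ATP synthase. Its 12S and 16S ribosomal RNAs are transcribed from mitochondrial DNA, whereas every one of its proteins is encoded in the nucleus, made in the cytosol and imported. The small subunit binds mRNA and decodes it, and the large subunit joins amino acids and releases the chain towards the inner membrane. Proteins with a bacterial counterpart form the core, and proteins found only in mitochondria lie mostly around it. In alveolar macrophages, mitochondrial respiration is known to sustain the resident population, and lipopolysaccharide is known to shift macrophage metabolism towards glycolysis.

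The nuclear genes of this ribosome have no shared operon, and their promoters are known for binding sites of NRF1, of ETS factors such as GABPA and of YY1. Promoter windows running from 250 bases before to 50 bases after the start site were found in RefSeq (GRCm38.p6) for 68 of the 77 members, 74 windows in all. The sites of the members described first below are shown because they carry these letters close to the start site, in capitals, read 5′ to 3′ on the strand of the gene. The NRF1 letters searched were GCGCA, any base and GCGC, on both strands.

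Mrpl44 (chr1:79775973-79776002, plus strand, motif starting 35 bases before the start site): agaagcacttGCGCACGCGCagtacactag
Mrpl9 (chr3:94443298-94443327, plus strand, 28 bases before): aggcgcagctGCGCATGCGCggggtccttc
Mrpl57 (chr14:57826172-57826201, plus strand, 57 bases before): tttgaatcctGCGCAGGCGCagaaggcgtc
Mrpl12 (chr11:120484546-120484575, plus strand, 81 bases before, letters on the other strand): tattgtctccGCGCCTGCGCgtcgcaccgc

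The ETS letters searched were CCGGAAG, again on both strands. They lay at or just beside the start site in several members.

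Mrps23 (chr11:88204392-88204421, plus strand, 15 bases after the start site, letters on the other strand): tgccgcttccgCTTCCGGtaacagcccgag
Mrpl57 (chr14:57826232-57826261, plus strand, 4 bases after): ccccagagagaCCGGAAGcagcgcgccgcc
Mrpl33 (chr5:31613937-31613966, plus strand, 3 bases before): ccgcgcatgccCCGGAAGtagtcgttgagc
Mrps18b (chr17:35916391-35916420, minus strand, 43 bases after, letters on the other strand): tgtcccgagcatgcgcagtcgctCTTCCGG

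The YY1 letters searched were AAGATGGCG, on both strands. The examples shown are from members with a negative log2 fold change, Ntn1 KO over LysM Cre. The same letters also stood in Mrps27 (0.33), Mrps11 (0.28), Mrps24 (0.25) and Mrpl36 (0.17), and the NRF1 letters also in Mrps9 (-0.25). The display is thus no sign that a motif goes with a direction.

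Mrpl37 (chr4:107066821-107066850, minus strand, 26 bases after the start site): tgcacgggcaAAGATGGCGgcgtccaggta
Mrps18a (chr17:46111005-46111034, plus strand, 11 bases after): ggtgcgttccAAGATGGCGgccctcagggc
Mrpl35 (chr6:71823742-71823771, minus strand, 23 bases after): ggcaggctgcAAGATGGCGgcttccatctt

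The NRF1 letters stood in 17.6% of the member windows, against 10.1% of the windows of all tested protein-coding genes and 4.60% of all windows in the RefSeq table. The ETS letters stood in 33.8% of the member windows, against 17.8% of those of tested genes and 8.86% of all. The YY1 letters stood in 10.8% of the member windows, against 3.09% of those of tested genes and 1.40% of all. At least 1 of these 3 motifs was found in 40 of the 68 members with a window. Other letters were no more frequent in members than in tested genes. GGGCGG, the core of SP and KLF sites, stood in 52.7% of member windows and 61.5% of those of tested genes, the E-box CACGTG in 9.46% and 9.92%, and the TATA box TATAAA in 6.76% and 7.23%. The median GC content was 58.5% in member windows and 60.3% in those of tested genes. A match is a run of letters and not a measured binding site.

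The libraries held between 12224835 and 13182585 reads in the Ntn1 KO group and between 9903284 and 13353733 in the LysM Cre group. Ntn1 itself had 1, 0 and 1 reads in Ntn1 KO libraries, against 1, 4, 9 and 3 in LysM Cre libraries. The log2 difference was -1.53 on the log2(normalized count + 1) scale (2-sided exact permutation p = 0.0571). That is the smallest p this test can give for 3 against 4 libraries, so it could not fall under 0.05. The deletion could thus not be checked firmly at this depth. LysM Cre replicates 1 and 4 stood apart in Lyz2, the gene that carries Cre. Lyz2 had 936, 1052 and 910 normalized counts in Ntn1 KO libraries, against 76927, 770, 721 and 118781 in LysM Cre libraries. All Ntn1 KO libraries were thus near LysM Cre replicates 2 and 3. The labels give no number of Cre copies, and whether copies of Cre or of intact Lyz2 differed between the libraries was not tested, so such a difference and the Ntn1 genotype cannot be told apart in the comparison of all libraries. Macrophage, lymphocyte and neutrophil markers were all detected, and no listed cell type marker in the deposited table was at 0 in every library. The listed dendritic cell marker Cd209a had no row there. The cell type markers are given in full beside the results.

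The 77 members were a small and steady share of each library. They held 0.162%, 0.161% and 0.160% of reads in Ntn1 KO libraries, against 0.148%, 0.142%, 0.154% and 0.146% in LysM Cre libraries. Summed over members, normalized counts came to 20134, 18971 and 19044 in Ntn1 KO libraries, against 18497, 17210, 18232 and 18087 in LysM Cre libraries. All Ntn1 KO sums were above all LysM Cre sums, and Ntn1 KO replicate 1 and LysM Cre replicate 2 were the extremes. In bulk RNA, a change in which cells were present and a change in RNA per cell cannot be told apart.

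Of the 77 members, 6 were higher in Ntn1 KO and 0 lower at an adjusted p under 0.05. They were Mrpl10, Mrps23, Mrpl44, Mrpl9, Mrpl57 and Mrpl33. That is 7.79% of the members, against a background of 10.4% of the 12963 tested genes called higher and 11.3% called lower, so the share called higher was no larger than in all genes, and the share called lower was smaller. The test was limma on log2(normalized count + 1), with p-values adjusted by the Benjamini-Hochberg method over all 12963 genes. At an unadjusted p under 0.05, limma put 17 members higher (22.1%, against 18.1% of all genes) and 4 lower (5.19%, against 18.5% of all genes). edgeR's quasi-likelihood test and DESeq2 on the recovered reads also called 0 members lower, and 6 and 3 members higher. edgeR called 10.5% of all genes higher and 11.5% lower, and DESeq2 10.9% higher and 12.4% lower.

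The members as a whole lay slightly above 0. Their median log2 fold change, Ntn1 KO over LysM Cre, was 0.10, against 0.01 for all genes tested, and 60 of the 77 were above 0, against 51.9% of all genes. The values ran from -0.35 for Mrps18b to 0.56 for Mrps6. The middle 90% of members lay between -0.16 and 0.37, against -0.80 and 0.76 for all genes. Among the 6403 genes with a mean within the range of the members, 10.1% were called higher and 8.78% lower, with a median of 0.05.

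**Figure D1:**
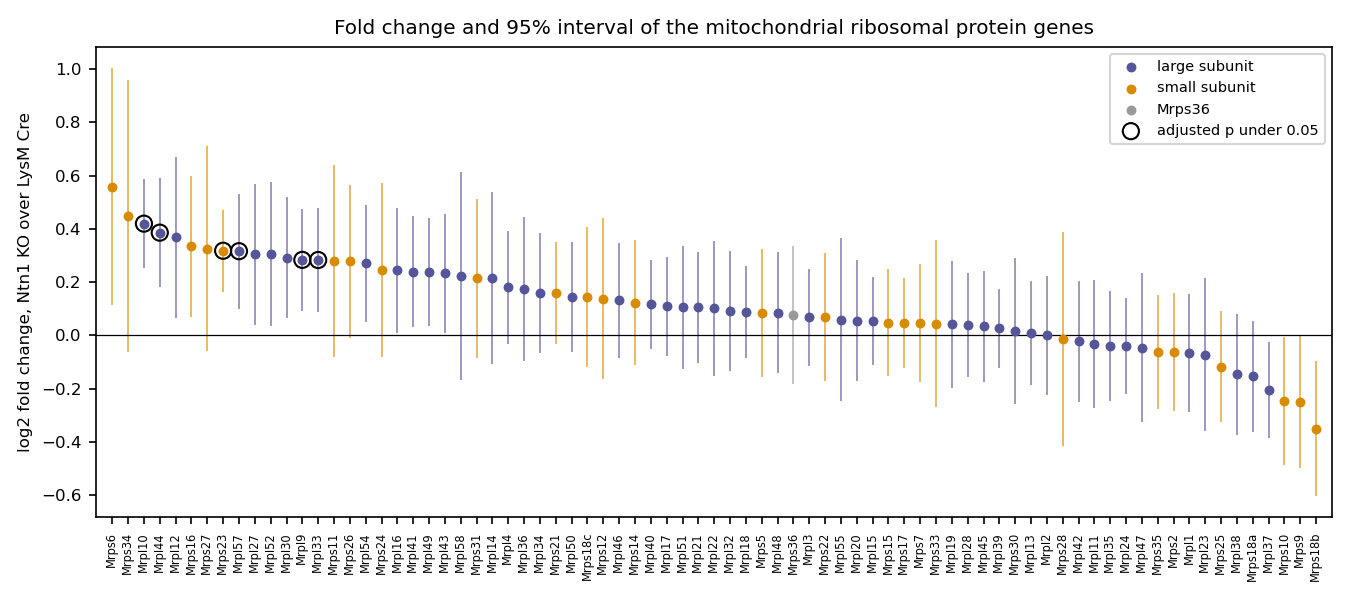
Log2 fold change of each of the 77 mitochondrial ribosomal protein genes, Ntn1 KO over LysM Cre, with its 95% interval from limma (vertical lines, 3 against 4 libraries), sorted by value and coloured by subunit. Rings mark the 6 genes past the adjusted p threshold, which lie between 0.28 and 0.42, while Mrps6 (0.56) and Mrps34 (0.45) lie higher with wider intervals.

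The members were measured closely enough to bound most changes. The 95% interval of the fold change stayed within 1.5-fold in either direction for 67 of 77 members, which is 87.0%, against 54.2% of all genes tested. The exceptions were Mrpl10, Mrpl44, Mrps18b, Mrps16, Mrps6, Mrpl12, Mrps34, Mrps27, Mrps11 and Mrpl58. The median standard error was 0.10 (log2) for members and 0.13 for all genes. Groups did not overlap, with all Ntn1 KO libraries above all LysM Cre libraries, for 19 members (24.7%, against 17.4% of all genes), and with all of them below for 2 members, Mrps18b and Mrpl37 (2.60%, against 16.3% of all genes).

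The gene with the smallest p among the members was Mrpl10 (ENSMUSG00000001445, GRCm38 chromosome 11, 97041560 to 97049213). Its protein anchors the stalk of the large subunit, to which translation factors dock. Mrpl10 had 381, 375 and 385 normalized counts in Ntn1 KO libraries, against 271, 292, 297 and 277 in LysM Cre libraries. The groups were far apart compared with the spread within each, since the lowest Ntn1 KO library exceeded the highest LysM Cre library. The means were 380 ± 4.99 (SD, n = 3) in Ntn1 KO and 284 ± 12.2 (SD, n = 4) in LysM Cre, a 1.34-fold difference (log2 fold change 0.42, SE 0.07, limma adjusted p = 0.00586).

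Shown because Mrpl10 was called in the most settings of any member, the 150 bases that end 23 bases before its RefSeq start site (chr11:97041410-97041559, GRCm38.p6, plus strand, outside annotated exons) held none of the 6 motifs searched, and so have no capitals. A long run of thymines lies towards the start site.

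Mrpl10: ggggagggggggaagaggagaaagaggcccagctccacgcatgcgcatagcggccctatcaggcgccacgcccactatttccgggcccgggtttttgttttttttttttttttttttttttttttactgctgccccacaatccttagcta

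The other stalk proteins did not all move with it. Mrpl12, the bacterial L7/L12 counterpart that forms the mobile arm of the stalk, had 115, 135 and 113 normalized counts in Ntn1 KO libraries, against 110, 85.1, 91.2 and 87.8 in LysM Cre libraries. Its log2 fold change was 0.37 (SE 0.13, limma adjusted p = 0.0792), which did not pass, although the groups did not overlap. Without LysM Cre replicate 1, however, Mrpl12 was called higher. Mrpl11, which forms the base of the stalk with ribosomal RNA, had 208, 212 and 206 normalized counts in Ntn1 KO libraries, against 249, 198, 216 and 196 in LysM Cre libraries, and its groups overlapped (log2 fold change -0.03, SE 0.11, limma adjusted p = 0.849).

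Mrps23 (ENSMUSG00000023723, chromosome 11, 88204388 to 88211507) encodes a small subunit protein found only in mitochondria. It had 486, 467 and 475 normalized counts in Ntn1 KO libraries, against 387, 364, 381 and 395 in LysM Cre libraries. The gap between the groups was wider than the range within either. The fold change was 1.25, with a 95% interval from 1.12 to 1.39 (log2 fold change 0.32, SE 0.07, limma adjusted p = 0.0129).

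Mrpl44 (ENSMUSG00000026248, chromosome 1, 79776018 to 79781445) encodes a large subunit protein with a fold related to ribonuclease III. It had 303, 269 and 270 normalized counts in Ntn1 KO libraries, against 199, 220, 227 and 212 in LysM Cre libraries. The groups did not overlap, and Ntn1 KO replicate 1 was the highest library. The fold change was 1.31, with a 95% interval from 1.13 to 1.505 (log2 fold change 0.39, SE 0.09, limma adjusted p = 0.0177). Its exons overlap those of Wdfy1 on the opposite strand, and since no source used here gives the strand setting of the counting, reads of that overlap cannot be told apart.

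Mrpl9, Mrpl57 and Mrpl33 passed the threshold narrowly. Mrpl9 (ENSMUSG00000028140, chromosome 3, 94443318 to 94451130), the counterpart of bacterial L9, had 441, 388 and 385 normalized counts in Ntn1 KO libraries, against 350, 316, 346 and 316 in LysM Cre libraries. Its lowest Ntn1 KO library stood above its highest LysM Cre library (log2 fold change 0.28, SE 0.08, limma adjusted p = 0.0438). Mrpl57 (ENSMUSG00000021967, chromosome 14, 57826234 to 57829296), a small protein of the large subunit found only in mitochondria, had 177, 162 and 172 normalized counts in Ntn1 KO libraries, against 146, 132, 137 and 132 in LysM Cre libraries. These groups also did not overlap (log2 fold change 0.32, SE 0.09, limma adjusted p = 0.0444).

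Mrpl33 (ENSMUSG00000106918, chromosome 5, 31596935 to 31664384), the counterpart of bacterial L33, had 302, 275 and 272 normalized counts in Ntn1 KO libraries, against 239, 219, 225 and 247 in LysM Cre libraries. Ntn1 KO replicate 1 was again the highest library, and the groups did not overlap (log2 fold change 0.28, SE 0.09, limma adjusted p = 0.0467). Exons of the gene model Gm43809 overlap its own on the same strand, and on the opposite strand those of Gm11574 overlap Mrpl10 and those of Oaz3 overlap Mrpl9.

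**Figure D2:**
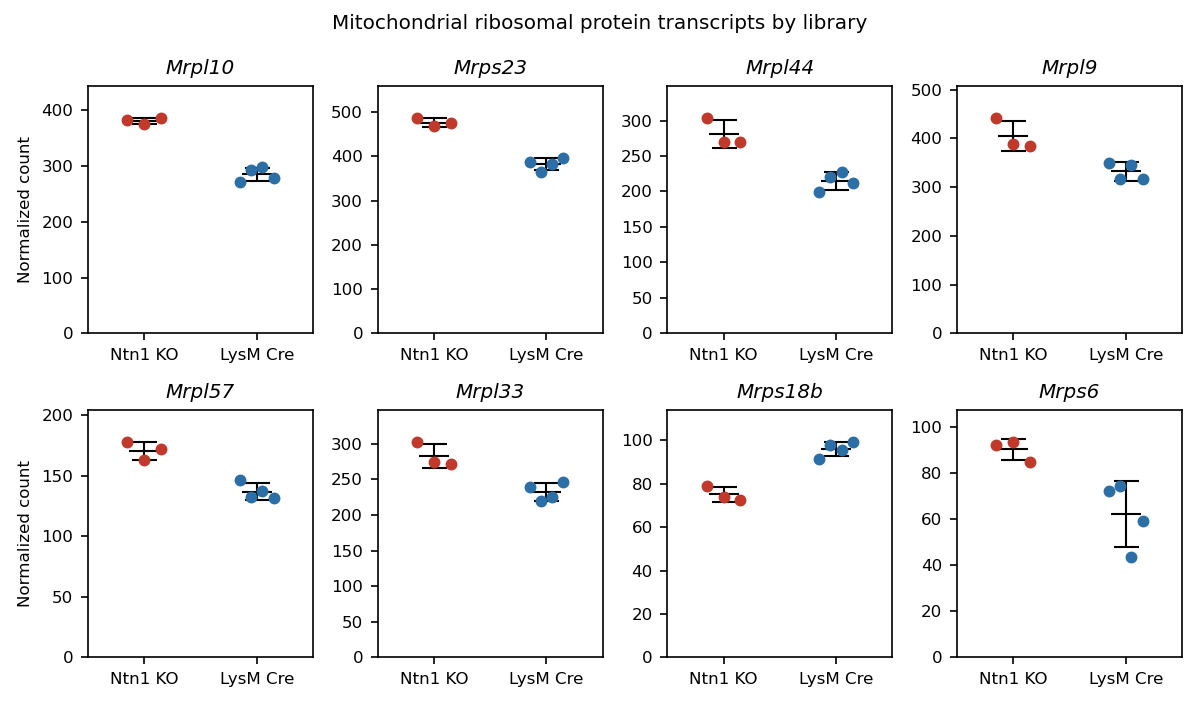
Normalized counts of 8 mitochondrial ribosomal protein genes in each library (points), with the mean and SD of the Ntn1 KO group (n = 3, left) and the LysM Cre group (n = 4, right). The first 6 genes were called higher in Ntn1 KO, and their groups do not overlap. Mrps18b is lower without overlap and Mrps6 higher without overlap, and neither was called.

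Shown because Mrpl9 had the NRF1 letters nearest to the start site among the called members, the 150 bases that end 19 bases before its RefSeq start site (chr3:94443168-94443317, GRCm38.p6, plus strand) have the NRF1 letters in capitals at their end.

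Mrpl9: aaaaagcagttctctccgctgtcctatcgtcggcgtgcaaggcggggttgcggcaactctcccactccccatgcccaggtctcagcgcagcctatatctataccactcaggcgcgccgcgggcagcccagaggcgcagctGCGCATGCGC

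Mrps18b had the smallest p of the members with a negative value. It is 1 of 3 mammalian copies of the bacterial S18 gene, the others being Mrps18a and Mrps18c, and the Mrps18a protein is part of the large subunit. Mrps18b had 79.1, 74.0 and 72.3 normalized counts in Ntn1 KO libraries, against 91.4, 97.8, 95.6 and 99.1 in LysM Cre libraries. Every Ntn1 KO library lay below every LysM Cre library, yet the gene did not pass (log2 fold change -0.35, SE 0.11, limma adjusted p = 0.0542). Mrps18a had a log2 fold change of -0.15 (limma adjusted p = 0.259) and Mrps18c one of 0.14 (limma adjusted p = 0.403), so neither passed.

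Mrps6, the counterpart of bacterial S6, which binds next to S18 in the bacterial small subunit, had the largest value. It had 92.3, 93.3 and 84.9 normalized counts in Ntn1 KO libraries, against 72.1, 74.4, 43.4 and 58.9 in LysM Cre libraries. LysM Cre replicate 3 was the lowest library, and the groups did not overlap, but the gene did not pass (log2 fold change 0.56, SE 0.20, limma adjusted p = 0.0731). Without LysM Cre replicate 3 its log2 fold change was 0.40 (limma adjusted p = 0.101), below the 0.44 of Mrpl10 in that fit. Its exons overlap those of Slc5a3 on the same strand, so its counts are uncertain.

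Mrps34, a small subunit protein found only in mitochondria, was the lowest member and the next largest value. It had 31.4, 32.7 and 30.7 normalized counts in Ntn1 KO libraries, against 27.4, 21.5, 16.8 and 27.6 in LysM Cre libraries. The groups did not overlap, but the LysM Cre libraries were scattered (log2 fold change 0.45, SE 0.22, limma adjusted p = 0.183). Exons of Nme3 on the same strand and of Mapk8ip3 on the other strand overlap it, which also makes its counts uncertain.

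Levels per length differed widely among the members, although most of their proteins are present in a single copy per ribosome. As the mean normalized count per kilobase of exon, Mrps21, the counterpart of bacterial S21, was highest at 463, followed by Mrpl52 at 378, and Mrps34 was lowest at 13.0, followed by Mrpl23 at 19.1. The exon length sums all annotated transcripts of a gene, so genes with long alternative transcripts appear low on this scale. None of these 4 genes passed the test between groups. Mrps21 had 387, 332 and 374 normalized counts in Ntn1 KO libraries, against 348, 314, 316 and 325 in LysM Cre libraries (log2 fold change 0.16, SE 0.08, limma adjusted p = 0.208). Mrpl52 had 523, 456 and 431 normalized counts in Ntn1 KO libraries, against 438, 331, 346 and 411 in LysM Cre libraries (log2 fold change 0.31, SE 0.12, limma adjusted p = 0.0989). Mrpl23, at the peptide exit, had 98.4, 90.4 and 83.1 normalized counts in Ntn1 KO libraries, against 106, 85.1, 92.9 and 97.8 in LysM Cre libraries, and its groups overlapped (log2 fold change -0.07, SE 0.13, limma adjusted p = 0.715).

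Both subunits had the same median. Of the 50 members in the large subunit, 5 were called higher and 0 lower, with a median log2 fold change of 0.10. Of the 26 members in the small subunit, 1 was called higher and 0 lower, with a median of 0.10. The background beside these counts is again 10.4% higher and 11.3% lower. The ratio of the summed level per kilobase of the large subunit over that of the small subunit was 2.68, 2.62 and 2.505 in Ntn1 KO libraries, against 2.56, 2.61, 2.59 and 2.55 in LysM Cre libraries, and the groups overlapped. The remaining member, Mrps36, is now known as a subunit of the 2-oxoglutarate dehydrogenase complex rather than of the ribosome, and it had a log2 fold change of 0.08 (limma adjusted p = 0.659).

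Descent and position in the ribosome gave the following counts, beside a background of 10.4% of all genes called higher and 11.3% lower. The groups are small and were not tested against that share. Of the 46 members with a bacterial counterpart, 3 were called higher, with a median log2 fold change of 0.09. Of the 30 classed as mitochondria-specific, 3 were called higher, with a median of 0.12. This class includes Mrps18a and Mrps18b, which are copies of S18 but sit in places of the ribosome that have no bacterial counterpart. Among proteins near the peptidyl transferase centre, which joins amino acids, 0 of 5 (Mrpl2, Mrpl3, Mrpl4, Mrpl16 and Mrpl27) were called, with a median of 0.18, and Mrpl16 and Mrpl27 were higher at an unadjusted limma p under 0.05, where 18.1% of all genes were. Around the peptide exit, where the new chain meets the inner membrane, 1 of 8 was called (Mrpl44), with a median of 0.03. In the central protuberance 0 of 5 were called, with a median of 0.09, and along the mRNA path and decoding site 0 of 5, with a median of 0.14. No member of any of these groups was called lower by limma.

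Libraries of a group also differed among themselves. The median deviation of the members from each gene's mean over the libraries was 0.10, 0.03 and 0.05 (log2) in Ntn1 KO libraries, against 0.01, -0.12, -0.005 and -0.04 in LysM Cre libraries. Ntn1 KO replicate 1 was the highest library for 32 of the 77 members, and LysM Cre replicate 2 was the lowest for 30. For cytosolic ribosomal protein genes the same measure was 0.26, 0.27 and 0.13 in Ntn1 KO libraries, against -0.10, -0.23, -0.19 and -0.13 in LysM Cre libraries, a wider gap between the groups than for the members.

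**Figure D3:**
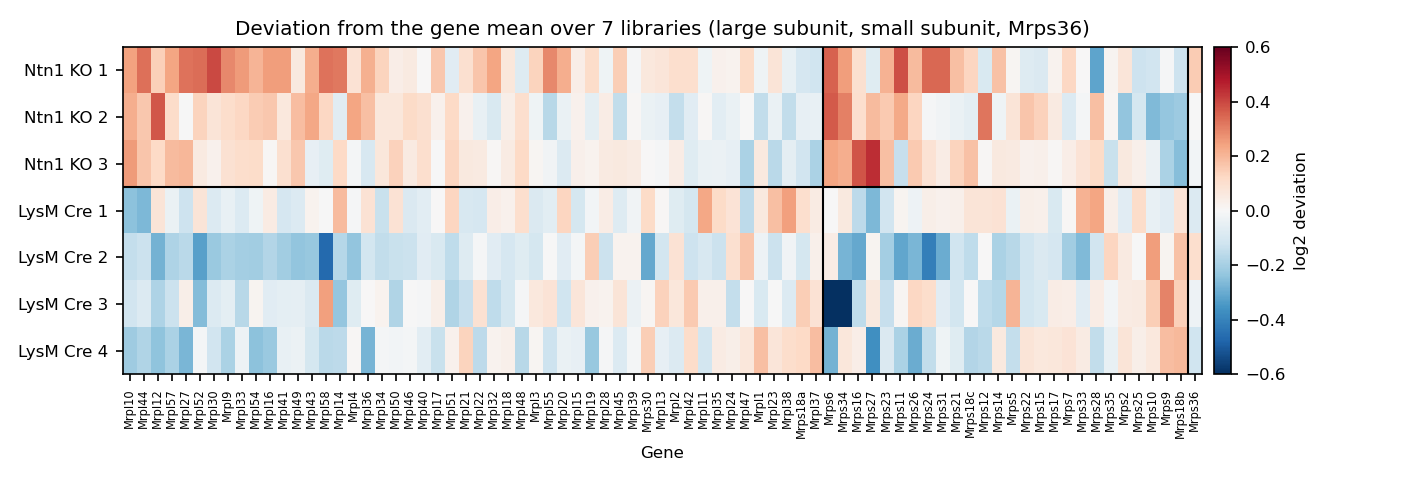
Deviation of each of the 77 members (columns, large subunit, then small subunit, then Mrps36) from its mean log2 value over the 7 libraries (rows, Ntn1 KO above LysM Cre). Red is above and blue below the gene's mean, in log2 units. Ntn1 KO replicate 1 is red for most genes and LysM Cre replicate 2 blue for most, as their median deviations of 0.10 and -0.12 show.

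Fewer members were called without either pair of LysM Cre libraries, and fewer of all genes too. Without LysM Cre replicates 1 and 4, 0 members were called higher and 0 lower by limma, against a background of 4.80% and 4.45% of all genes, while the median log2 fold change of the members was 0.15. Mrpl10 then had a log2 fold change of 0.37 (limma adjusted p = 0.0534) and Mrps23 one of 0.35 (limma adjusted p = 0.0551). Without LysM Cre replicates 2 and 3, 1 member was called higher (Mrpl10, log2 fold change 0.47, limma adjusted p = 0.0271) and 0 lower, against a background of 4.74% and 4.78%, and the median was 0.11. With any single library left out, Mrpl10, Mrps23 and Mrpl44 were called each time, and Mrpl9 and Mrpl33 in no such fit. Mrpl57 was called only without LysM Cre replicate 1, as was Mrpl12, which was not called with all libraries.

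Transcript length moved with the groups. At a transcript length of 1 kb, genes deviated by 0.13, 0.09 and 0.03 (log2) in Ntn1 KO libraries, against -0.003, -0.10, -0.06 and -0.03 in LysM Cre libraries. The members' median exonic length was 2533 bases, against 4216 for all genes tested. After a correction of each library for length, 2 members were called higher (Mrpl10 and Mrpl33) and 1 lower (Mrps18b, log2 fold change -0.45, limma adjusted p = 0.0229), against a background of 9.82% and 10.4%. The members' median log2 fold change fell to 0.05 and 48 of 77 were above 0.

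The authors' deposited table held 3 of these calls. In the authors' deposited table, Mrpl10 (log2 fold change 0.40, adjusted p = 0.00148), Mrps23 (0.30, adjusted p = 0.0106) and Mrpl44 (0.36, adjusted p = 0.0171) were higher and 0 members lower, against 8.92% of genes higher and 9.92% lower there.

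**Figure D4:**
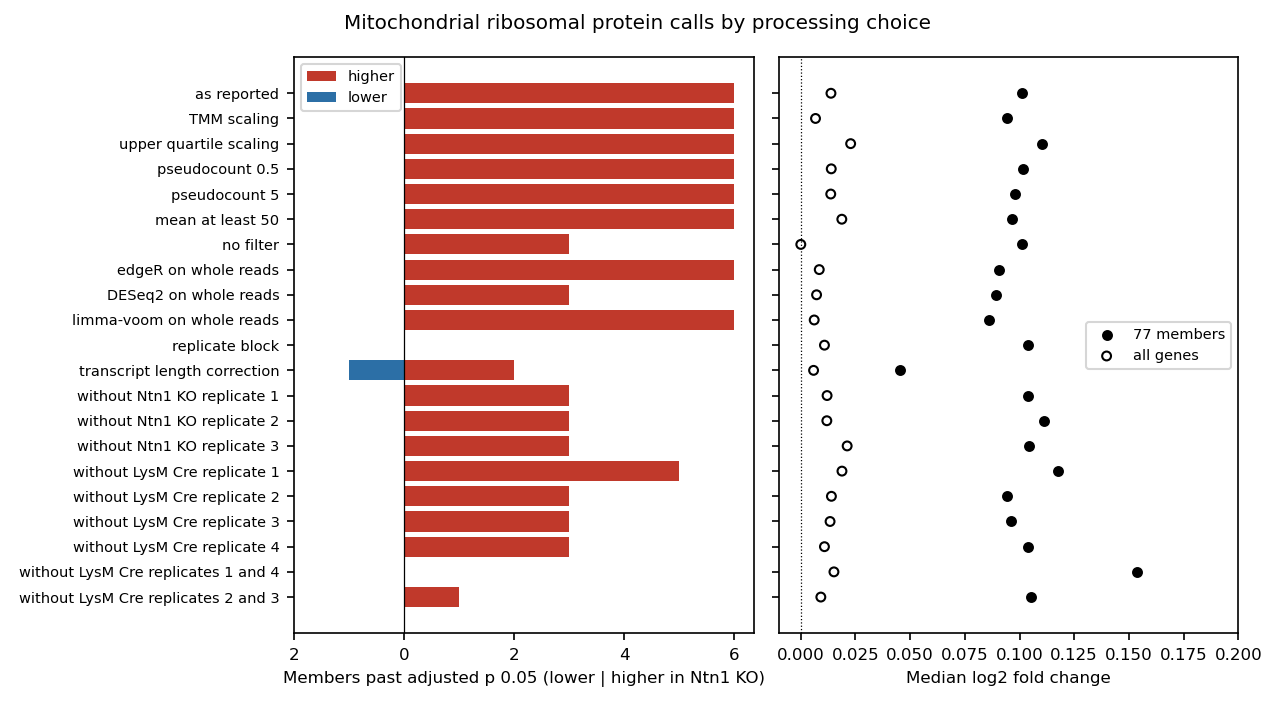
Number of members called higher (red) or lower (blue, leftwards) in Ntn1 KO under each way of processing the values, and the median log2 fold change of the 77 members (filled) and of all genes (open). Between 0 and 6 members were called higher, and the members' median lay between 0.05 and 0.15, above that of all genes in every setting drawn.

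The ribosome of the cytosol was the clearest contrast. Of 75 cytosolic ribosomal protein genes, 73 were called higher and 0 lower, with a median log2 fold change of 0.38, and all were above 0. Among all genes tested, 10.4% were called higher and 11.3% lower. Rpl3, a core protein of the cytosolic large subunit, had 8444, 8463 and 7916 normalized counts in Ntn1 KO libraries, against 6199, 5874, 6245 and 5986 in LysM Cre libraries, a gap much wider than the spread within groups (log2 fold change 0.45, SE 0.07, limma adjusted p = 0.00323). The highest mitochondrial member value that passed, 0.42 for Mrpl10, was a little above the median of the cytosolic genes. The cytosolic count was 55 without LysM Cre replicates 1 and 4 and 21 without replicates 2 and 3. It was 63 after the length correction, with a median of 0.28, and 13 with the replicate number as a block. In these fits, in turn, 4.80%, 4.74%, 9.82% and 3.27% of all genes were called higher. Cytosolic genes were also measured more closely, with a median standard error of 0.07 (log2) against 0.10 for the members. Equal changes would thus pass more often among them.

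The respiratory chain, which the mitochondrial ribosome supplies with its mitochondrially encoded subunits, also has many nuclear genes. Of 77 nuclear genes listed by symbol for the respiratory chain and ATP synthase, 7 were called higher and 0 lower, with a median of 0.14. A list by symbol can hold related genes that encode no subunit, such as Atp5sl. The background is again 10.4% of all genes called higher and 11.3% lower. The 7 were Ndufa4, Atp5d, Ndufb11, Uqcrfs1, Uqcrh, Cox5a and Atp5e. Ndufa4, a subunit now placed in cytochrome c oxidase, had 436, 490 and 460 normalized counts in Ntn1 KO libraries, against 305, 323, 296 and 292 in LysM Cre libraries, with no overlap (log2 fold change 0.60, SE 0.08, limma adjusted p = 0.00178). Without Ntn1 KO replicate 2 this list had 3 calls, against 5.35% of all genes called higher. Without LysM Cre replicate 2 it had 4, against 6.89%. It had 3 calls without LysM Cre replicates 1 and 4, 3 without replicates 2 and 3, and 3 after the length correction. After that correction its median fell to 0.05. In these fits, in turn, 4.80%, 4.74% and 9.82% of all genes were called higher.

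**Figure D5:**
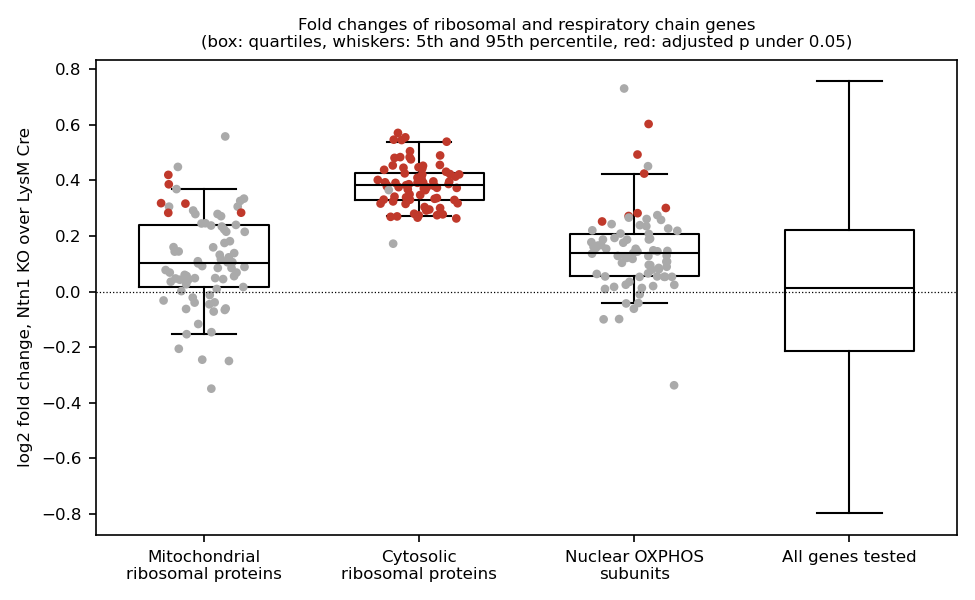
Log2 fold changes, Ntn1 KO over LysM Cre, of the mitochondrial ribosomal protein genes (77), the cytosolic ribosomal protein genes (75) and the nuclear respiratory chain and ATP synthase genes (77), with all 12963 genes as a box only. Boxes give quartiles, whiskers the 5th and 95th percentiles, and red points passed the adjusted p threshold. Medians are 0.10, 0.38, 0.14 and 0.01.

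The ribosomal RNAs that the members bind were also read. Of 13 genes of the mitochondrial genome that passed the filter, 3 were called higher (mt-Tp, mt-Nd6 and mt-Rnr1) and 0 lower. The count was 1 without Ntn1 KO replicate 2 or LysM Cre replicate 2 or 4. It was 0 without LysM Cre replicates 1 and 4 or after the length correction. In these fits, in turn, 5.35%, 6.89%, 6.90%, 4.80% and 9.82% of all genes were called higher. In the fit of all 7 libraries, 10.4% of all genes were called higher and 11.3% lower. mt-Rnr1, the 12S RNA of the small subunit, had 5853, 4881 and 4071 normalized counts in Ntn1 KO libraries, against 3811, 3602, 3437 and 3720 in LysM Cre libraries, with no overlap (log2 fold change 0.42, SE 0.11, limma adjusted p = 0.031). mt-Rnr2, the 16S RNA of the large subunit, had 18600, 13889 and 13873 normalized counts in Ntn1 KO libraries, against 13730, 12204, 13540 and 13510 in LysM Cre libraries. Its gap was small apart from Ntn1 KO replicate 1, and it did not pass (log2 fold change 0.21, SE 0.12, limma adjusted p = 0.237). The libraries were made from mRNA, so the level of these RNAs depends on how they were captured.

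The list of assembly factors of the mitochondrial ribosome showed 2 of 29 called higher and 0 lower, with a median log2 fold change of 0.03. It also takes in genes that are not specific to this ribosome, such as the helicase gene Ddx18. Over all genes tested, 10.4% were called higher and 11.3% lower. Mtg1, a GTPase that acts late in large subunit assembly, had 167, 185 and 153 normalized counts in Ntn1 KO libraries, against 80.2, 115, 118 and 77.7 in LysM Cre libraries. It was the largest change among the called genes of the pathway lists on mitochondria (log2 fold change 0.80, SE 0.18, limma adjusted p = 0.0153). Nsun4, which methylates the 12S RNA and takes part in joining the subunits, had 283, 283 and 271 normalized counts in Ntn1 KO libraries, against 167, 199, 232 and 192 in LysM Cre libraries (log2 fold change 0.51, SE 0.12, limma adjusted p = 0.0165). For both genes all Ntn1 KO libraries were above all LysM Cre libraries. Without Ntn1 KO replicate 2, or without LysM Cre replicates 1 and 4, 0 of the 29 were called by limma. In those fits 5.35% and 4.80% of all genes were called higher.

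Proteins that work on or in the finished ribosome did not pass, beside a background of 10.4% of all genes called higher and 11.3% lower. Among the 5 ribosome proteins that carry other symbols, 0 were called and the median was -0.003. The smallest p was that of Aurkaip1, a small subunit protein (log2 fold change 0.22, limma adjusted p = 0.118). Among 13 translation factors 0 were called, with a median of 0.03, and the smallest p was that of Oxa1l, which inserts new chains into the inner membrane (0.19, limma adjusted p = 0.136). Among 17 mitochondrial aminoacyl-tRNA synthetases 0 were called, with a median of 0.03, and the smallest p was that of Cars2, which charges the cysteine tRNA (-0.29, limma adjusted p = 0.142).

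Genes that make and keep mitochondrial RNA showed 0 of 13 called higher and 1 lower, with a median of 0.05. The background for this list and the next is 10.4% of all genes called higher and 11.3% lower. Lrpprc, which stabilises mitochondrial mRNAs, had 637, 650 and 674 normalized counts in Ntn1 KO libraries, against 826, 790, 725 and 777 in LysM Cre libraries. The groups did not overlap (log2 fold change -0.25, SE 0.07, limma adjusted p = 0.031), but Lrpprc was called in only 1 of the fits that left out a single library, the one without LysM Cre replicate 3. Among 16 import and chaperone genes, 1 was called higher and 0 lower, with a median of 0.06. Timm17b, a part of the inner membrane import channel, had 204, 216 and 200 normalized counts in Ntn1 KO libraries, against 149, 130, 118 and 139 in LysM Cre libraries, well beyond the spread (log2 fold change 0.62, SE 0.11, limma adjusted p = 0.00571).

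Regulators of mitochondrial biogenesis had calls in both directions, with 1 of 11 higher and 2 lower and a median of -0.06. That is 9.09% and 18.2% of the list, against 10.4% and 11.3% of all genes tested. Myc, a growth factor-responsive transcription factor, had 582, 748 and 670 normalized counts in Ntn1 KO libraries, against 412, 488, 527 and 365 in LysM Cre libraries (log2 fold change 0.58, SE 0.14, limma adjusted p = 0.0197). Pprc1, a coactivator of the PGC-1 family that works with NRF1, had 320, 443 and 453 normalized counts in Ntn1 KO libraries, against 595, 591, 559 and 594 in LysM Cre libraries (log2 fold change -0.54, SE 0.12, limma adjusted p = 0.0146). Ppargc1b, the coactivator PGC-1 beta, had 84.2, 74.996 and 103 normalized counts in Ntn1 KO libraries, against 129, 142, 171 and 113 in LysM Cre libraries (log2 fold change -0.66, SE 0.17, limma adjusted p = 0.0262). None of the 3 genes overlapped between groups, so Myc was higher and both coactivators lower in Ntn1 KO. Without Ntn1 KO replicate 1 or 2, or LysM Cre replicate 2 or 3, 1 of the list was called lower. In turn, 9.57%, 6.25%, 7.14% and 9.43% of all genes were called lower in those fits. Without Ntn1 KO replicate 2 or 3, 0 of the list were called higher by limma, against 5.35% and 7.93% of all genes.

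The genes of the NRF1, ETS and YY1 factors named above did not pass. Nrf1 had a log2 fold change of 0.04 (limma adjusted p = 0.789), Gabpa one of -0.06 (limma adjusted p = 0.598) and Yy1 one of -0.14 (limma adjusted p = 0.15). The 13 members whose window held the NRF1 letters included 3 of the called members and had a median log2 fold change of 0.21, and the 55 without them included the other 3 and had a median of 0.09. For the ETS letters the medians were 0.14 in 25 members, 3 of them called, and 0.06 in 43 members, 3 of them called. For the YY1 letters they were 0.08 in 8 members, 0 of them called, and 0.11 in 60 members, 6 of them called. For the E-box, which Myc is known to bind, they were 0.06 in 5 members, 0 of them called, and 0.11 in 63 members, 6 of them called. These differences were not tested.

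Growth genes outside mitochondria gave further context, beside a background of 10.4% of all genes called higher and 11.3% lower. Of 20 cytosolic ribosome biogenesis genes 3 were called higher and 1 lower, with a median of 0.05, and with single libraries left out 0 to 2 were called higher, 0 of them without Ntn1 KO replicate 2 and 1 without Ntn1 KO replicate 3 or LysM Cre replicate 2 or 4. Dkc1, the pseudouridine synthase of ribosomal RNA (log2 fold change 0.32, limma adjusted p = 0.0132), and Nop58, a box C/D particle protein (0.27, limma adjusted p = 0.0260), were higher, and Gnl3, nucleostemin (-0.32, limma adjusted p = 0.0148), was lower. Of 20 cell cycle genes 10 were called higher and 0 lower, with a median of 0.58. Mcm6, a replication helicase subunit, had 1249, 1613 and 1482 normalized counts in Ntn1 KO libraries, against 976, 931, 894 and 935 in LysM Cre libraries (log2 fold change 0.63, SE 0.09, limma adjusted p = 0.00278). Cdc20, an activator of the anaphase-promoting complex, had a log2 fold change of 0.97 (SE 0.16, limma adjusted p = 0.00515). The cell cycle count rested on single libraries, with 17 without Ntn1 KO replicate 1, 4 without Ntn1 KO replicate 2 or 3 or LysM Cre replicate 2, and 5 without LysM Cre replicate 3 or 4.

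Cell type markers moved with the groups, beside a background of 10.4% of all genes called higher and 11.3% lower. All 12 natural killer cell markers were called higher and 0 lower, and their summed normalized counts lay between 53860 and 59808 in Ntn1 KO libraries, against 11718 and 18825 in LysM Cre libraries. Of 12 monocyte and recruited macrophage markers, 2 were called higher and 7 lower (24789 to 33004 in Ntn1 KO, against 34353 to 46213 in LysM Cre). Of 12 alveolar macrophage markers 0 were called by limma (75847 to 128991, against 59710 to 96437 in LysM Cre). For the natural killer and monocyte lists the sums did not overlap, and for the alveolar macrophage list they did.

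The other marker lists held no lower calls by limma. Their background is again 10.4% of all genes called higher and 11.3% lower. Of 12 neutrophil markers 6 were called higher and 0 lower (23668 to 70460 in Ntn1 KO, against 15915 to 18335 in LysM Cre). Of 12 epithelial markers 8 were called higher and 0 lower (1089 to 1420, against 542 to 759 in LysM Cre), and of 9 dendritic cell markers 4 were called higher and 0 lower (2936 to 5458, against 1402 to 2335). T cell markers had 3 of 12 called higher and 0 lower (7437 to 10169 in Ntn1 KO, against 6669 to 7922 in LysM Cre), B cell markers 1 of 5 higher and 0 lower (728 to 1260, against 773 to 1469) and erythroid markers 0 of 7 either way (6936 to 136707, against 1254 to 26211). With single libraries left out, the neutrophil count was 2 without LysM Cre replicate 2 or 4 and 3 without replicate 3, and the dendritic count was 2 without Ntn1 KO replicate 1 or 2 or LysM Cre replicate 4. Of these lists only neutrophil, epithelial and dendritic markers had sums that did not overlap. The part of cell composition in the values of the mitochondrial ribosomal protein genes was not tested.

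The members are spread over the genome, with 11 on chromosome 11 and 8 on chromosome 17. A close neighbour on the opposite strand was more frequent among them than among tested protein-coding genes, though most members had none. A protein-coding gene on the opposite strand starts within 1000 bases of the start of 33 of the 77 members (42.9%), against 1935 of 11615 tested protein-coding genes (16.7%). Of the 30 partners that were tested, 4 were called higher and 1 lower, against 10.4% and 11.3% of all genes tested. Fau, whose product includes a ribosomal protein of the cytosol, starts 59 bases from Mrpl49 and had a log2 fold change of 0.34 (limma adjusted p = 0.0217), where Mrpl49 had 0.24 (limma adjusted p = 0.0895). Tmem63b, the partner of Mrpl14, had -0.51 (limma adjusted p = 0.0128), where Mrpl14 had 0.21 (limma adjusted p = 0.305). Mrps11 and Mrpl46 are each other's partner and had 0.28 (limma adjusted p = 0.235) and 0.13 (limma adjusted p = 0.348). The partners of the called members Mrpl44 and Mrpl57, Wdfy1 (0.07, limma adjusted p = 0.687) and Ska3 (0.51, limma adjusted p = 0.157), were not called. Exons of 27 members overlap a gene on the opposite strand and those of 7 a gene on the same strand, which leaves their counts uncertain where strand was not used.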

How the data were processed

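Lavage cells gave 7 RNA libraries, 3 Ntn1 KO and 4 LysM Cre, grouped by the genotype in the labels. The submitters' processing notes name cutadapt 1.15, STAR 2.5.3a, HTSeq, DESeq2 and the build GRCm38 (mm10); no source used here gives the annotation or strand setting. The deposited table lists 16476 genes, and its signal values per library are read counts over size factors. Per the file headers, it also carries the authors' log2 fold changes with standard errors, their test statistic (a score) and their p-value before and after adjustment, the last missing for 650 genes. Whole reads were recovered from the deposited steps (100% of values whole within 0.01).

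Log2(normalized count + 1) was tested with limma 3.58.1 in R 4.3.3 (trended eBayes) on the 12963 genes averaging 10 or more, with Benjamini-Hochberg adjustment and a threshold of 0.05. Fold changes understate the change of low genes. Intervals are 95% limma intervals. edgeR 4.0.16, DESeq2 1.42.0 and limma-voom on the recovered reads, other scalings (TMM, upper quartile), pseudocounts (0.5, 5) and filters (50, none), a replicate block, a transcript length correction and leaving out libraries were alternatives. Scripts were tested on simulated data. Libraries of a group differed by more than sampling noise (chi-square per gene from 8.71 to 36.3). Positions came from GENCODE M21, which matched 99.8% of identifiers, and promoters from RefSeq GRCm38.p6.

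The members, gene lists, marker lists and alternatives were chosen with earlier results of these data known. Members were named when called, when 1 of the 2 highest or 2 lowest per kilobase of exon, or when 1 of the 2 largest uncalled changes; from each pathway list up to 2 called genes per direction, or the gene of smallest p. Mrps18b, Mrpl11, Mrpl12, Mrpl37, Rpl3, Nrf1, Gabpa, Yy1, Lars2, the mitochondrial ribosomal RNAs and head-to-head partners were named after their values were seen. No set test was run.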

Additional observations from a re-analysis of the deposited data

How the results depend on the processing

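TMM or upper quartile scaling, either pseudocount, a mean of at least 50, edgeR and limma-voom kept the same 6 members higher and 0 lower. No filter and DESeq2 gave 3 higher. The transcript length correction gave 2 higher and 1 lower, and a members' median log2 fold change of 0.0455. With single libraries left out, 3 to 5 members were higher and 0 lower, and the members' median lay between 0.09 and 0.12. Without LysM Cre replicates 1 and 4 there were 0 members higher (median 0.15), 622 genes higher and 577 lower, and Mrpl23 turned to 0.0233. Without LysM Cre replicates 2 and 3 there was 1 member higher, 614 genes higher and 619 lower. Among all genes, single libraries left out gave 694 to 1173 higher and 810 to 1293 lower, from 1352 and 1461, the lowest without Ntn1 KO replicate 2; without LysM Cre replicate 2 these were 893 and 926, and without replicate 4, 894 and 913. The median of all genes, 0.0138 as reported, was 0.0068 with TMM, 0.0228 with upper quartile scaling, 0.0188 with a mean of at least 50, 0.000058 with no filter, 0.0085 with edgeR, 0.0073 with DESeq2, 0.0062 with limma-voom, 0.0059 after the length correction, 0.0092 without LysM Cre replicates 2 and 3, and 0.0109 to 0.0212 with single libraries left out. No scaling moved it by 0.1. The cause of these shifts was not tested, beyond that fewer libraries entered some fits.

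By the replicate numbers of the titles, the same-number correlations of deviations were -0.23, -0.03 and -0.19. By the numbers of the deposited columns they were -0.08, -0.29 and 0.08. Neither numbering gave a sign of pairing, but deviations from the means of 3 and 4 libraries cannot exclude it. With the number as a replicate block, in which LysM Cre replicate 4 had no partner, 0 members were higher and 0 lower, against 424 genes higher and 382 lower (3.27% and 2.95%). Shallow counts limit Mrps34 most among the members.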

Other observations

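Lars2, the mitochondrial leucyl-tRNA synthetase, held at least 72.7% of the summed normalized counts of the 17 aminoacyl-tRNA synthetase genes in every library. It had 16059, 17113 and 13256 normalized counts in Ntn1 KO libraries, against 23906, 8058, 12161 and 19650 in LysM Cre libraries. The LysM Cre libraries spanned the Ntn1 KO libraries, with replicates 1 and 4 the highest (log2 fold change 0.07, SE 0.33, limma adjusted p = 0.898). The processed pseudogene row Mrpl23-ps1, which is no member, averaged 2.82 normalized counts over the 7 libraries.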
